A study of Homo sapiens with 12 samples.

Results

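The endoplasmic reticulum (ER) folds secreted and membrane proteins, and 10 genes of its folding and surveillance machinery were followed here. They were taken by name from the deposited table, in which 10 of 10 were found among 26258 genes. HSPA5 (BiP), HSP90B1 (GRP94), PDIA4 and SDF2L1 encode chaperones and folding factors of the ER lumen. DNAJB9 and DNAJC3 encode J-domain co-chaperones of BiP, and HERPUD1 encodes a membrane protein of ER-associated degradation. XBP1, ERN1 and ATF6 encode a transcription factor and the sensors of the unfolded protein response.

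RNA was sequenced from HLE cells, an established human hepatocellular carcinoma cell line, after transfection of control siRNA (siCtrl), siRNA against YAP and TAZ (siY/T) or siRNA against ATF4 (siATF4). Each culture received the vehicle DMSO or the kinase inhibitor Sorafenib (Srf), at 5 µM according to the sample labels. The 6 groups are siCtrl DMSO, siY/T DMSO, siATF4 DMSO, siCtrl Srf, siY/T Srf and siATF4 Srf, with 2 libraries in each and 12 in all. Depletion was transient and left part of each transcript, and how many siRNA sequences were used per target in these libraries is not given in the sources used here. The study's methods describe biological replicates, but in another number than the 2 libraries per group here. The labels do not say that these 2 libraries came from separate cultures. The p-values therefore measure only the spread between these samples, which may be technical.

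A set of transmembrane sensors reports misfolded proteins in the ER, and each of them has its own output. PERK, encoded by *EIF2AK3*, slows translation and thereby raises the translation of ATF4, a factor that other stress kinases also feed and that switches on genes of amino acid supply and of stress signalling. IRE1, encoded by *ERN1*, splices the *XBP1* mRNA into the form that encodes an active transcription factor, and ATF6 is cut in the Golgi to release one. ATF6 and spliced XBP1 raise ER chaperones and degradation factors, so the transcripts of these genes are read as the output of the ATF6 and XBP1 arms. Gene-level counts show neither *XBP1* splicing nor the cleavage or phosphorylation of the sensors. The question put to the data was whether Sorafenib and the depletions moved the ATF6 and XBP1 arms or only the ATF4 arm.

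The DNA elements through which these arms act were looked for in the promoters of the 10 genes, to set the genes side by side by their sequence. All 10 had a promoter in the RefSeq table of GRCh38.p14, which holds 250 bases before and 50 bases after each start. The ER stress response element (ERSE, CCAAT and CCACG separated by any 9 bases) was found on either strand in 3 of 10, HSPA5, HSP90B1 and XBP1, and in 0.0769% of the 35116 promoters of the table. The related ERSE-II (ATTGG and CCACG separated by any 1 base) was found in 2 of 10, HERPUD1 and SDF2L1, and in 0.0541% of all promoters. The core of the XBP1 element (TGACGTGG) matched 0 of 10 and 0.729% of all. The C/EBP-ATF response element that ATF4 can bind (CARE, letters TGATGNAA) matched 1 of 10, HERPUD1, and 3.62% of all. The motifs were chosen after the levels had been seen, and a longer and a stricter form of the CARE had been looked at first.

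The stretches that hold the matches are shown 5′ to 3′ on the strand of the gene, with 30 bases on each side and the matches in capitals, so that the element of HERPUD1 can be compared with those of the chaperones. They end upstream of the start. ASNS and CHAC1, genes of the ATF4 arm with a CARE match, are shown beside them. DDIT3 and TRIB3 of the same arm were also looked up, and no match was found for either. The matches within a promoter did not overlap each other.
HSPA5, chr9:125241361-125241439 (minus strand, ERSE): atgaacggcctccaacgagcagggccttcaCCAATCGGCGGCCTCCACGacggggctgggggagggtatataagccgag
HSP90B1, chr12:103930186-103930369 (plus strand, ERSE on both strands): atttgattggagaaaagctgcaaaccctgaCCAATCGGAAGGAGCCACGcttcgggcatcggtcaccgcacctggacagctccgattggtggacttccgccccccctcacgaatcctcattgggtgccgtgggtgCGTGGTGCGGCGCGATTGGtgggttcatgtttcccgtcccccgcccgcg
XBP1, chr22:28800573-28800651 (minus strand, ERSE): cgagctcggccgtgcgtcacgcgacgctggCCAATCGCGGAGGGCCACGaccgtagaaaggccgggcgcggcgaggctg
SDF2L1, chr22:21642084-21642154 (plus strand, ERSE-II on the other strand): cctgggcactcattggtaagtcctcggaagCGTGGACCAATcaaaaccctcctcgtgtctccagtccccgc
HERPUD1, chr16:56931936-56932065 (plus strand, CARE on the other strand, then ERSE-II): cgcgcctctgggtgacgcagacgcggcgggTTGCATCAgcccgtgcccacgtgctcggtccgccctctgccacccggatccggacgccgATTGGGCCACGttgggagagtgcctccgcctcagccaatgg
ASNS, chr7:97872439-97872506 (minus strand, CARE): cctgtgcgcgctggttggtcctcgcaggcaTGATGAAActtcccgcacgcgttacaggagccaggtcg
CHAC1, chr15:40953232-40953299 (plus strand, CARE on the other strand): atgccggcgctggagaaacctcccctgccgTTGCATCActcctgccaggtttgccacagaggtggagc

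Among the wider lists of each arm, ERSE matched 6 of 12 promoters of the ATF6 arm, 0 of 13 of the XBP1 arm and 0 of 15 of the ATF4 arm, and ERSE-II matched 3 of 12, 0 of 13 and 0 of 15. CARE matched 4 of 15 promoters of the ATF4 arm, 1 of 13 of the XBP1 arm and 1 of 12 of the ATF6 arm, the last being HERPUD1. HERPUD1 was thus the member whose window held both an ERSE-type and a CARE match. A match describes letters in a window and is not evidence of binding.

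Levels are given as CPM, for which the count of a gene is divided by the total over all genes of the library and multiplied by 1000000. The totals were 41408348 to 53619732 reads, so that 1 read stood for 0.0186 to 0.0241 CPM. Even ERN1, the lowest member, rested on 234 to 538 reads per library. The 2 libraries of a group differed with a mean chi-square per gene of 2.98 (siCtrl DMSO) to 20.7 (siY/T DMSO), and the SD of their log2 differences was also highest in siY/T DMSO cells (0.192, against 0.110 to 0.135 in the other groups), so values from siY/T DMSO cells are the least precise. The siRNA targets fell as labelled in all targeted libraries. *YAP1* was at 46.6 to 57.7 CPM in the 4 siY/T libraries against 236 to 279.9 CPM in the other 8. *WWTR1* (TAZ) was at 49.3 to 68.6 against 104 to 173 CPM in the same libraries. *ATF4* was at 84.5 to 101 CPM in the 4 siATF4 libraries against 197 to 492 CPM in the other 8. *WWTR1* was also lower with siATF4 in DMSO, at 107 and 104 CPM against 170 and 173 CPM in siCtrl. With Srf it was at 145 and 136 CPM in siATF4 against 154 and 145 CPM in siCtrl cells. Hepatocyte markers summed to at most 2.44 CPM, with 1 of 6 reaching 1 CPM and *ALB* and *HNF4A* at or near 0, so these cells lacked the defining transcripts of the liver cell. Endothelial and leukocyte markers summed to at most 0.262 and 0.999 CPM, and 0 of 3 and 0 of 4 reached 1 CPM. The summed epithelial markers ranged from 978 to 3333 CPM and the mesenchymal ones from 1999 to 3001 CPM. The epithelial markers did not move together. In siY/T DMSO and siCtrl DMSO cells, *KRT8* had means of 669 and 2245 CPM and *KRT18* of 330 and 1032 CPM. In the same order, *CDH1* had means of 2.14 and 0.803 CPM and *EPCAM* of 0.223 and 0.223 CPM. The part of these markers in the results was not tested. Fewer cells of a type and less RNA per cell cannot be told apart in such bulk libraries.

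Per kilobase of transcript in siCtrl DMSO cells, the members spanned a wide range. *HSP90B1* led with 541 ± 21.2 CPM per kb (SD, n = 2 libraries), followed by *HSPA5* with 240 ± 8.30 and *PDIA4* with 127 ± 1.19 CPM per kb. *XBP1* (29.9 ± 0.512 CPM per kb) and *HERPUD1* (29.3 ± 1.05 CPM per kb) did not differ beyond their spread, and *SDF2L1* followed with 23.9 ± 1.78. Below them stood *ATF6* with 10.7 ± 0.187, *DNAJC3* with 5.50 ± 0.133, *DNAJB9* with 3.77 ± 0.0673 and *ERN1* with 0.655 ± 0.00407 CPM per kb. *HSP90B1*, *HSPA5* and *PDIA4* were thus the most abundant members, and the sensors *ATF6* and *ERN1* and the co-chaperones *DNAJC3* and *DNAJB9* the rarest.

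**Figure D1:**
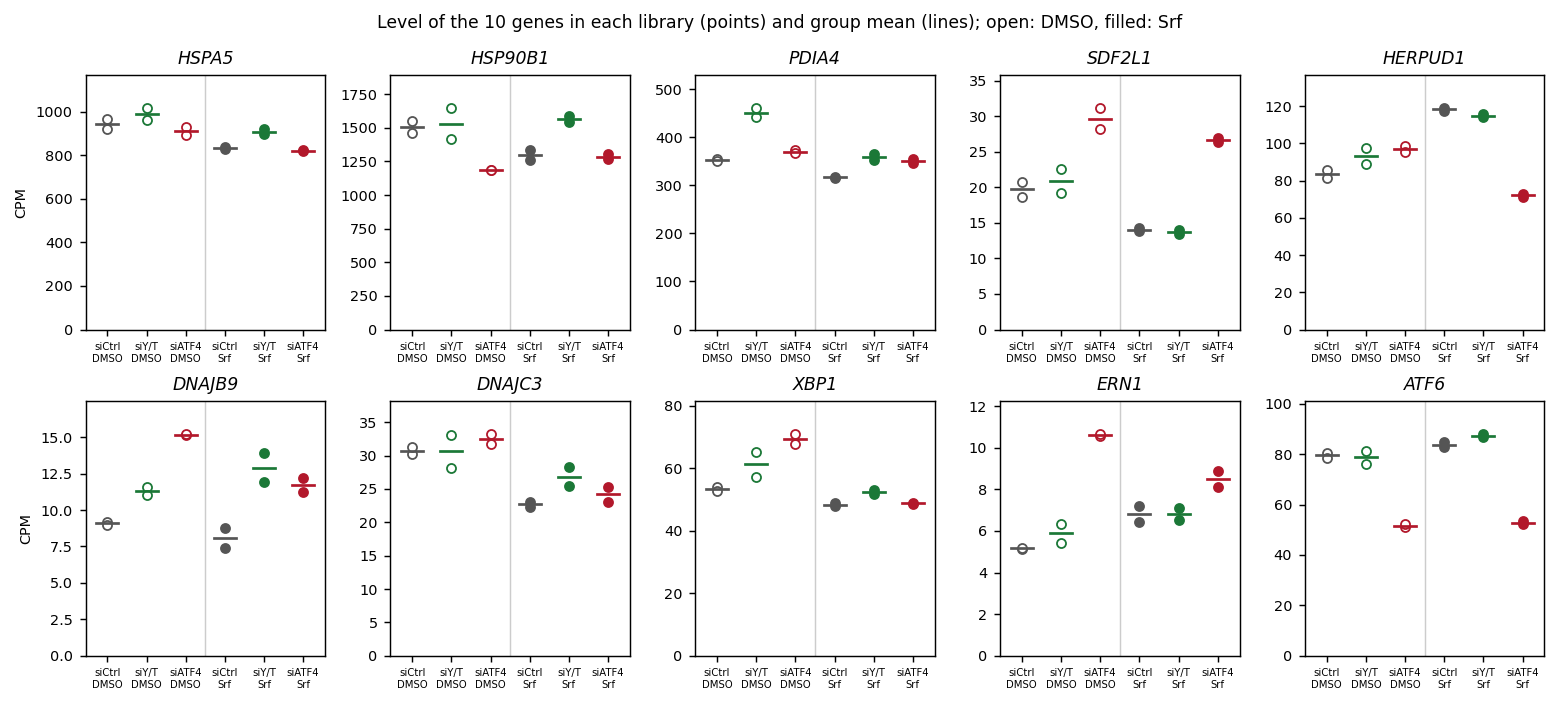
Level of each of the 10 genes in CPM (vertical axes, from 0) in the 12 libraries by group (horizontal axes), with open points for DMSO, filled points for Srf and a line at the mean of each group of 2. *HSPA5* keeps between 821 and 1017 CPM in all libraries, *ATF6* drops to 51.0 to 53.3 CPM in the 4 siATF4 libraries, and *HERPUD1* lies between 117 and 119 CPM in siCtrl Srf but between 71.4 and 72.9 CPM in siATF4 Srf cells.

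Changes were tested with limma on log2(CPM + 0.5), which understates the change of low genes, in 1 fit of all 12 libraries over 13515 genes. A gene is said to have risen or fallen where its Benjamini-Hochberg adjusted p was under 0.05, and is called where its log2 fold change was also at least 0.58 in size. A difference between the effects of an siRNA in Srf and in DMSO was called at an adjusted p under 0.05. The 4 contrasts of a depletion with siCtrl and the contrast of Srf with DMSO in siCtrl cells share siCtrl libraries, so their values are set side by side and are not independent.

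With Srf in siCtrl cells, the question was whether the drug raised the ER chaperones together with *ATF4*. No chaperone rose: *HSPA5*, *HSP90B1*, *PDIA4*, *SDF2L1* and *DNAJC3* fell, by less than the minimum for a call, and *DNAJB9* did not pass. Among the other members *XBP1* also fell by less than that minimum, *HERPUD1* and *ERN1* rose, and *ATF6* did not pass. Of the 10 members, 0 were called by limma, edgeR or DESeq2, against 17.5% of all genes by limma, while 8 passed an unadjusted p under 0.05. With the adjusted p alone, 2 rose and 6 fell, against 36.3% of all genes higher and 26.9% lower, 63.2% in all. Their median log2 fold change was -0.16, and that of all genes was 0.05.

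*HSPA5* (Entrez 3309, chromosome 9 of GRCh37, the build of all gene positions given here, 127997132 to 128003661) encodes BiP, the main Hsp70 chaperone of the ER and the transcript most often used as a sign of ER stress. It was measured at 966 and 919.9 CPM in siCtrl, 1017 and 959 CPM in siY/T and 931 and 895 CPM in siATF4 cells with DMSO. With Srf it was measured at 837 and 829, 895 and 921, and 822 and 821 CPM in the same order. Both Srf libraries lay below both DMSO libraries for each siRNA. The log2 fold change with Srf was -0.18 in siCtrl (standard error 0.043, adjusted p = 0.00274), -0.12 in siY/T (adjusted p = 0.0299) and -0.15 in siATF4 cells (adjusted p = 0.01, limma). The fall in siCtrl cells passed under every alternative tried. That in siATF4 cells did not pass with quantile normalization (adjusted p = 0.0531) or without siATF4 DMSO replicate 1 (adjusted p = 0.0936), and that in siY/T cells did not pass with no filter on low values, with only the groups compared in the fit, or without siY/T DMSO replicate 1 or either siY/T Srf library (adjusted p from 0.0524 to 0.164). Its highest library was 1.24 times its lowest, the narrowest range of the 10 members.

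*HSP90B1* (Entrez 7184, chromosome 12, 104323885 to 104347709) encodes GRP94, the Hsp90 of the ER. Its levels with DMSO were 1464 and 1547 CPM in siCtrl, 1414 and 1649 in siY/T and 1183 and 1183 in siATF4 cells. With Srf they were 1334 and 1262, 1544 and 1591, and 1302 and 1265 CPM. *HSP90B1* fell with Srf in siCtrl cells, by 0.21 on the log2 scale (standard error 0.061, adjusted p = 0.00844), and with siATF4 in DMSO, with a log2 fold change of -0.35 (adjusted p = 0.000234, limma). The fall with Srf did not pass without siCtrl DMSO replicate 2 (adjusted p = 0.0812) or without siCtrl Srf replicate 2 (adjusted p = 0.0798). In Srf the siATF4 libraries overlapped those of siCtrl, with a log2 fold change of -0.02 (adjusted p = 0.828, 95% interval -0.15 to 0.12). The gene overlaps *UQCC6* by 359 bases and *TTC41P* by 105 bases on the other strand and the microRNA gene *MIR3652* on its own, and whether counting used the strand is not given in the sources used here. The near-identical pseudogene copy *HSP90B2P* had 39.2 to 56.0 CPM, so reads split between the copies are uncertain.

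*PDIA4* (Entrez 9601, chromosome 7, 148700154 to 148725754) encodes a protein disulphide isomerase, which forms and rearranges disulphide bonds. It was at 355 and 350.3 CPM in siCtrl, 462 and 442 in siY/T and 373 and 368 in siATF4 cells with DMSO, and at 316 and 318, 354 and 365, and 347 and 356 CPM with Srf. The siY/T DMSO libraries were the highest of the 12 and did not overlap any other group. *PDIA4* rose with siY/T by 0.36 in DMSO (standard error 0.038, adjusted p = 4.36e-06) and by 0.18 in Srf (adjusted p = 0.00174). Its fall with Srf was -0.15 in siCtrl (adjusted p = 0.00353) and -0.33 in siY/T cells (adjusted p = 1.5e-05), all from limma, and the former was -0.07 with quantile normalization (adjusted p = 0.114).

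*SDF2L1* (Entrez 23753, chromosome 22, 21996591 to 21998588) encodes a partner of J-domain co-chaperones that assists BiP. With DMSO it stood at 20.7 and 18.7 CPM in siCtrl, 22.5 and 19.2 in siY/T and 31.2 and 28.2 in siATF4 cells. With Srf it stood at 13.9 and 14.2, 13.4 and 14.0, and 26.3 and 26.9 CPM. All 4 siATF4 libraries lay above all 8 others, and the 4 siCtrl and siY/T libraries with Srf lay below all others. *SDF2L1* fell with Srf by 0.47 in siCtrl cells (standard error 0.081, adjusted p = 0.000224) and by 0.59 in siY/T cells (adjusted p = 6.32e-05), on the log2 scale. The latter was the 1 member called for Srf in siY/T cells, where 9.97% of all genes were called (4.14% lower), and it was not called without siY/T DMSO replicate 1 or without siY/T Srf replicate 1, or with a pseudocount of 1. In siATF4 cells the log2 fold change with Srf was -0.15 (adjusted p = 0.133, 95% interval -0.33 to 0.02), which passed with only the groups compared in the fit (adjusted p = 0.0283).

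*DNAJB9* (Entrez 4189, chromosome 7, 108210311 to 108215294) encodes ERdj4, a co-chaperone of BiP and a classical target of spliced XBP1. It was at 9.19 and 8.97 CPM in siCtrl, 11.6 and 11.1 in siY/T and 15.1 and 15.2 in siATF4 cells with DMSO, and at 8.75 and 7.43, 13.9 and 11.9, and 12.2 and 11.2 CPM with Srf. All 8 depleted libraries lay above all 4 siCtrl libraries. Srf itself gave log2 fold changes of -0.16 in siCtrl (adjusted p = 0.138) and 0.18 in siY/T cells (adjusted p = 0.121) and a fall of -0.36 in siATF4 cells (adjusted p = 0.00533, limma). The value in siCtrl cells was -0.40 with quantile normalization (adjusted p = 0.00292) and -0.27 without siCtrl Srf replicate 1 (adjusted p = 0.0414), and that in siY/T cells was 0.28 without siY/T Srf replicate 2 (adjusted p = 0.0431).

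*DNAJC3* (Entrez 5611, chromosome 13, 96329393 to 96447242) encodes p58IPK, a co-chaperone that is also known as an inhibitor of PERK. Its levels were 30.2 and 31.3 CPM in siCtrl, 28.2 and 33.0 in siY/T and 33.2 and 31.7 in siATF4 cells with DMSO, and 23.1 and 22.3, 28.3 and 25.5, and 25.2 and 23.1 CPM with Srf. It fell with Srf, with log2 fold changes of -0.43 in siCtrl (adjusted p = 0.000353) and -0.42 in siATF4 cells (adjusted p = 0.000695), with no overlap between DMSO and Srf libraries. In siY/T cells the libraries overlapped and the log2 fold change was -0.18 (adjusted p = 0.0651, limma). It passed with TMM scaling, quantile normalization, edgeR and DESeq2 (adjusted p from 0.0217 to 0.0423), without siY/T DMSO replicate 1 (-0.30, adjusted p = 0.00396) and without siY/T Srf replicate 1 (-0.26, adjusted p = 0.0416).

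*XBP1* (Entrez 7494, chromosome 22, 29190543 to 29196585), whose total transcript is itself a target of ATF6, was at 54.2 and 52.9 CPM in siCtrl, 65.3 and 57.2 in siY/T and 71.0 and 67.9 in siATF4 cells with DMSO. With Srf it was at 49.0 and 47.8, 51.9 and 53.0, and 49.0 and 48.7 CPM. The siATF4 DMSO libraries were the highest of the 12, and with Srf all 6 libraries lay within 47.8 to 53.0 CPM. *XBP1* fell with Srf by 0.50 in siATF4 cells (standard error 0.058, adjusted p = 1.59e-05). In siCtrl cells the fall was -0.14 (adjusted p = 0.0448, limma). It did not pass with no filter on low values (adjusted p = 0.0657) or with quantile normalization (adjusted p = 0.092). It was also lost when any of the 4 libraries compared was left out, with values from -0.16 to -0.13. In siY/T cells *XBP1* fell by 0.22 on the log2 scale. This fall did not pass with only the groups compared in the fit (adjusted p = 0.0665), and the value was -0.12 without siY/T DMSO replicate 1.

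*HERPUD1* (Entrez 9709, chromosome 16, 56966054 to 56978776) encodes an ER membrane protein that helps to assemble the degradation complex around the ubiquitin ligase SYVN1. With DMSO it was at 85.8 and 81.6 CPM in siCtrl, 97.5 and 89.1 in siY/T and 98.6 and 95.1 in siATF4 cells. With Srf it was at 119 and 117, 114 and 116, and 72.9 and 71.4 CPM. The siATF4 Srf libraries were the lowest of the 12, while the 4 other Srf libraries were the highest. *HERPUD1* rose with Srf by 0.50 in siCtrl (standard error 0.049, adjusted p = 1.91e-06) and by 0.30 in siY/T cells (adjusted p = 0.000264), and fell in siATF4 cells, with a log2 fold change of -0.42 (adjusted p = 1.76e-05, limma). This is the member whose promoter window held the CARE match shown above, for a motif chosen after these levels had been seen.

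*ERN1* (Entrez 2081, chromosome 17, 62116440 to 62208179), which encodes the sensor kinase and nuclease IRE1, was at 5.15 and 5.19 CPM in siCtrl, 5.42 and 6.35 in siY/T and 10.6 and 10.7 in siATF4 cells with DMSO, and at 7.20 and 6.41, 7.10 and 6.55, and 8.10 and 8.90 CPM with Srf. It rose with Srf in siCtrl cells, by 0.36 on the log2 scale (standard error 0.093, adjusted p = 0.00408), and fell in siATF4 cells, with -0.31 (adjusted p = 0.0147). With quantile normalization the value in siCtrl cells was 0.10 (adjusted p = 0.368), and without siCtrl Srf replicate 1 it was 0.29 (adjusted p = 0.0504). The fall in siATF4 cells did not pass without either siATF4 DMSO library or without siATF4 Srf replicate 1 (adjusted p from 0.0596 to 0.119).

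*ATF6* (Entrez 22926, chromosome 1, 161736088 to 161947364) encodes the sensor that becomes a transcription factor. It was at 80.6 and 78.6 CPM in siCtrl, 76.2 and 81.3 in siY/T and 51.0 and 52.3 in siATF4 cells with DMSO, and at 84.8 and 82.8, 88.0 and 86.8, and 53.3 and 52.4 CPM with Srf. The 4 siATF4 libraries lay well below the other 8, with and without the drug. Srf gave log2 fold changes of 0.07 in siCtrl (adjusted p = 0.177, 95% interval -0.03 to 0.17), 0.15 in siY/T (adjusted p = 0.014) and 0.03 in siATF4 cells (adjusted p = 0.565, limma). The rise in siY/T cells did not pass with only the groups compared in the fit (adjusted p = 0.108) or without replicate 1 of siY/T DMSO (adjusted p = 0.0988) or of siY/T Srf (adjusted p = 0.0651).

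**Figure D2:**
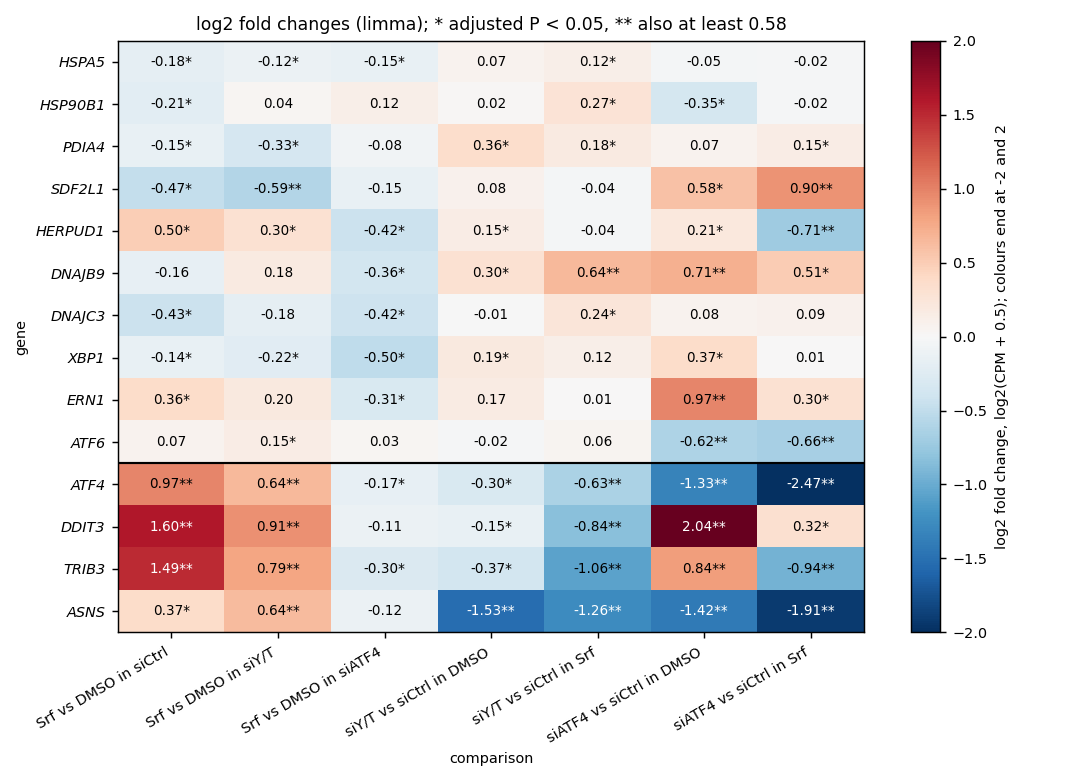
log2 fold changes from limma on log2(CPM + 0.5) for the 10 genes (rows above the line) and for *ATF4*, *DDIT3*, *TRIB3* and *ASNS* (rows below) in the 7 comparisons (columns), with red for higher and blue for lower, 1 star for an adjusted p under 0.05 and 2 stars where the change is also at least 0.58. In siCtrl cells Srf gives 0.97 for *ATF4*, 1.60 for *DDIT3* and 1.49 for *TRIB3*, whereas the chaperones range from -0.47 for *SDF2L1* to -0.15 for *PDIA4*.

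The ATF4 arm moved in the opposite way. *ATF4* itself rose from 248 and 249 to 484 and 492 CPM with Srf in siCtrl cells, from 207 and 197 to 317 and 314 CPM in siY/T cells, and fell slightly in siATF4 cells, from 96.2 and 101 to 84.5 and 90.6 CPM. *DDIT3*, which encodes the stress factor CHOP, rose from 26.2 and 25.3 to 80.6 and 77.6 CPM with Srf in siCtrl cells, a log2 fold change of 1.60 (adjusted p = 3.58e-10). *TRIB3*, a pseudokinase gene downstream of ATF4 and CHOP, rose from 44.1 and 38.5 to 112 and 121 CPM (1.49, adjusted p = 2.59e-08). *ASNS*, the asparagine synthetase gene, rose from 99.6 and 89.2 to 120.4 and 124 CPM (0.37, adjusted p = 0.0142, limma). *EIF2AK3*, which encodes PERK, was at 22.3 and 21.8 CPM with DMSO and 21.8 and 20.8 CPM with Srf (-0.05, adjusted p = 0.626).

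The members were then set beside lists of the 3 arms, written from general knowledge with earlier results of these data known and holding several of the members. Of the 17 genes written for the ATF4 arm, 16 were tested, and with Srf in siCtrl cells 15 rose and 1 fell, with a median log2 fold change of 0.94. *CHAC1*, a glutathione-degrading enzyme gene, rose by 2.28, *DDIT4*, an inhibitor of mTORC1 signalling, by 1.93, and *ATF5* was the gene that fell, by 0.80 on the log2 scale (chosen after its values were seen). Of the 13 genes written for the ATF6 arm, 12 were tested, and 1 rose and 7 fell, with a median of -0.15. The gene that rose was *HERPUD1*, and the gene that was called was *MANF*, a secreted ER stress factor, with -0.60. Of the 14 genes of the XBP1 arm, 1 rose and 8 fell, with a median of -0.26, and *SPCS3*, a signal peptidase subunit gene, was called with -0.73. The median of all genes was 0.05, with 36.3% of them higher and 26.9% lower by the adjusted p.

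With Srf in siY/T cells, 13 genes of the ATF4 arm rose and 2 fell (median 0.59), whereas 3 rose and 7 fell in the ATF6 arm (median -0.13) and 3 rose and 8 fell in the XBP1 arm (median -0.15). Over all genes the median was 0.04, with 29.5% higher and 23.5% lower. Of the 10 members, 2 rose and 4 fell, against 52.9% of all genes that passed in either direction.

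With Srf in siATF4 cells, 5 genes of the ATF4 arm rose and 6 fell (median -0.06), 1 rose and 5 fell in the ATF6 arm (median -0.12), and 1 rose and 8 fell in the XBP1 arm (median -0.15). Here 27.9% of all genes were higher and 22.4% lower, with a median of 0.03. *CEBPB*, a partner of ATF4, fell by 0.99 and *SESN2*, an inhibitor of mTORC1 signalling, fell by 0.66 on the log2 scale. Of the 10 members, 0 were called by limma, edgeR or DESeq2, against 8.63% of all genes by limma, while 6 passed an unadjusted p under 0.05. All 6 that passed the adjusted p fell, *HSPA5*, *DNAJB9*, *DNAJC3*, *XBP1*, *HERPUD1* and *ERN1*, with 50.4% of all genes passing in either direction.

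**Figure D3:**
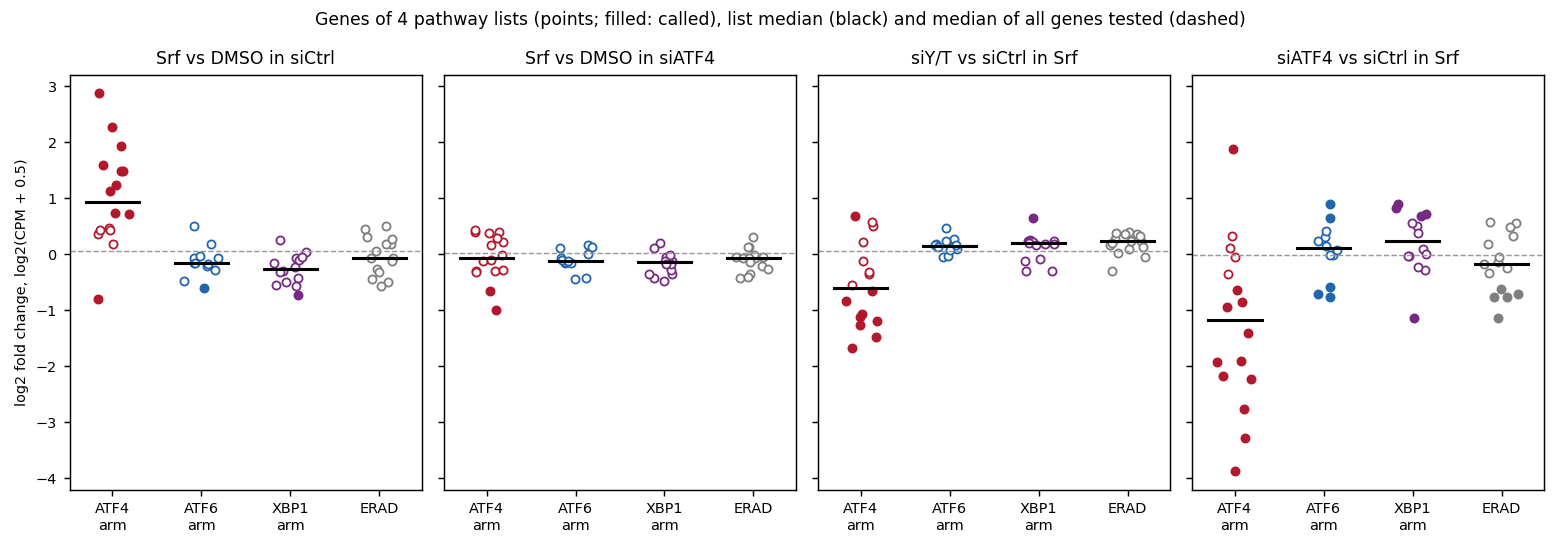
log2 fold changes from limma (vertical axis) of the tested genes in the lists of the ATF4, ATF6 and XBP1 arms and of ER-associated degradation (ERAD), 1 point per gene, filled where called, with a black line at the list's median and a dashed line at the median of all genes, in 4 comparisons (panels). With Srf in siCtrl cells the ATF4 arm has a median of 0.94 and the ATF6 and XBP1 arms have -0.15 and -0.26, and with siATF4 in Srf the medians are -1.17, 0.11 and 0.23.

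Depletion of YAP and TAZ was compared with siCtrl to see whether the chaperones followed *ATF4* down. In DMSO, 4 members rose, *PDIA4*, *DNAJB9*, *XBP1* and *HERPUD1*, and no member fell. By limma, edgeR or DESeq2 0 members were called, against 14.6% of all genes by limma, and 4 passed an unadjusted p under 0.05. The rises of *XBP1* (0.19, adjusted p = 0.0126) and *HERPUD1* (0.15, adjusted p = 0.0158) were 0.13 and 0.09 with TMM scaling (adjusted p = 0.0804 and 0.135), and neither passed without siCtrl DMSO replicate 2 or without siY/T DMSO replicate 1. *DNAJB9* rose by 0.30 (adjusted p = 0.0112), and with quantile normalization its value was 0.13 (adjusted p = 0.255), and without siCtrl DMSO replicate 2 it was 0.29 (adjusted p = 0.0622). Of all genes 37.3% were higher and 22.8% lower, 60.1% in all, so 4 rises of 10 are near the background.

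In Srf, 5 members rose with siY/T, *DNAJB9*, *HSP90B1*, *DNAJC3*, *PDIA4* and *HSPA5*, against 30.2% of all genes higher and 18.8% lower, 48.9% in all. *DNAJB9* was the 1 member called, against 9.95% of all genes (6.11% higher). Its rise was 0.64 on the log2 scale (standard error 0.091, adjusted p = 7.91e-05), and it was not called without siCtrl Srf replicate 2 or without siY/T Srf replicate 1. *HSP90B1* rose by 0.27 (adjusted p = 0.00263). The rises of *HSPA5* (0.12, adjusted p = 0.0286) and *DNAJC3* (0.24, adjusted p = 0.0236) were 0.07 and 0.18 with TMM scaling (adjusted p = 0.25 and 0.0597), and neither passed without either siCtrl Srf library, nor *HSPA5* without siY/T Srf replicate 2 or *DNAJC3* without siY/T Srf replicate 1.

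In these contrasts more genes of the ATF4 arm were lower than higher. With siY/T in DMSO, 5 genes of the ATF4 arm rose and 10 fell (median -0.33), with *ASNS* at -1.53, the cystine transporter gene *SLC7A11* at -1.49 and *SESN2* at 1.51. Of the ATF6 arm 5 rose and 1 fell (median 0.08), and of the XBP1 arm 3 rose and 3 fell (median -0.01), with the translocon-associated gene *SSR3* called at -0.70. In Srf, 3 genes of the ATF4 arm rose and 11 fell (median -0.60), among them *SLC7A11* with -1.67, *ATF3* with -1.49 and *ASNS* with -1.26. There 7 rose and 0 fell in the ATF6 arm (median 0.15; 5 did not pass), and 9 rose and 2 fell in the XBP1 arm (median 0.19). The medians of all genes were 0.07 and 0.05.

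Depletion of ATF4 was compared with siCtrl in the same way. In DMSO, 3 of 10 were called, against 22.7% of all genes (8.56% higher and 14.1% lower): *ERN1* and *DNAJB9* rose and *ATF6* fell. *ERN1* changed by 0.97 on the log2 scale (standard error 0.093, adjusted p = 8.66e-07), *DNAJB9* by 0.71 (adjusted p = 1.38e-05) and *ATF6* by -0.62 (standard error 0.045, adjusted p = 7.34e-08). *SDF2L1* lay just under the minimum fold with 0.58 (adjusted p = 3.22e-05), and edgeR and DESeq2 called 4 members. *XBP1* rose by 0.37 (adjusted p = 8.27e-05) and *HERPUD1* by 0.21 (adjusted p = 0.00211), and *HSP90B1* was the other member that fell. With the adjusted p alone 5 rose and 2 fell, against 33.4% of all genes higher and 34.4% lower, 67.9% in all.

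In Srf, 3 of 10 were called, against 28.9% of all genes (10.3% higher and 18.7% lower): *SDF2L1* rose, and *HERPUD1* and *ATF6* fell. *SDF2L1* changed by 0.90 on the log2 scale (standard error 0.081, adjusted p = 3.87e-07), *HERPUD1* by -0.71 (standard error 0.049, adjusted p = 3.06e-08) and *ATF6* by -0.66 (adjusted p = 2.7e-08). *DNAJB9* rose by 0.51 (adjusted p = 0.000205), *ERN1* by 0.30 (adjusted p = 0.01) and *PDIA4* by 0.15 (adjusted p = 0.00342). The rise of *ERN1* did not pass without siCtrl Srf replicate 2 (adjusted p = 0.0982) or without siATF4 Srf replicate 2 (adjusted p = 0.087). *HSPA5* had values of -0.05 in DMSO (adjusted p = 0.352, 95% interval -0.14 to 0.05) and -0.02 in Srf (adjusted p = 0.687, 95% interval -0.11 to 0.07). With quantile normalization the value in DMSO was -0.14 (adjusted p = 0.0096), which passed. With the adjusted p alone 4 rose and 2 fell, against 35.8% and 37.4% of all genes, 73.2% in all.

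The arms were mixed in siATF4 cells. In the ATF4 arm, 6 rose and 10 fell in DMSO (median -0.86) and 2 rose and 12 fell in Srf (median -1.17). *DDIT4* with -3.29 and *CHAC1* with -2.76 were the lowest named in Srf, whereas *PPP1R15A*, which encodes the phosphatase subunit GADD34, rose by 2.35 and *CEBPB* by 2.24 in DMSO. *DDIT3* rose with siATF4 from 26.2 and 25.3 to 108 and 107 CPM in DMSO (log2 fold change 2.04, adjusted p = 6.24e-12). *TRIB3* was at 70.5 and 78.0 CPM with siATF4 in DMSO, against 44.1 and 38.5 CPM in siCtrl. In Srf it was lower with siATF4, at 57.8 and 62.9 CPM against 112 and 121 CPM. In the ATF6 arm, 6 rose and 3 fell in both DMSO and Srf (medians 0.10 and 0.11), with *SEL1L*, the adaptor of SYVN1, at -0.71 and -0.77 and the lectin chaperone *CANX* at -0.65 and -0.58. In the XBP1 arm, 5 rose and 3 fell in DMSO (median 0.07) and 7 rose and 3 fell in Srf (median 0.23), with *EDEM1*, a mannosidase-like degradation factor, at -0.86 and -1.14, the signal recognition particle receptor gene *SRPRB* at 0.75 and 0.90 and the BiP co-chaperone *DNAJB11* at 0.82 in Srf. The medians of all genes were near 0, at -0.001 and -0.008.

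**Figure D4:**
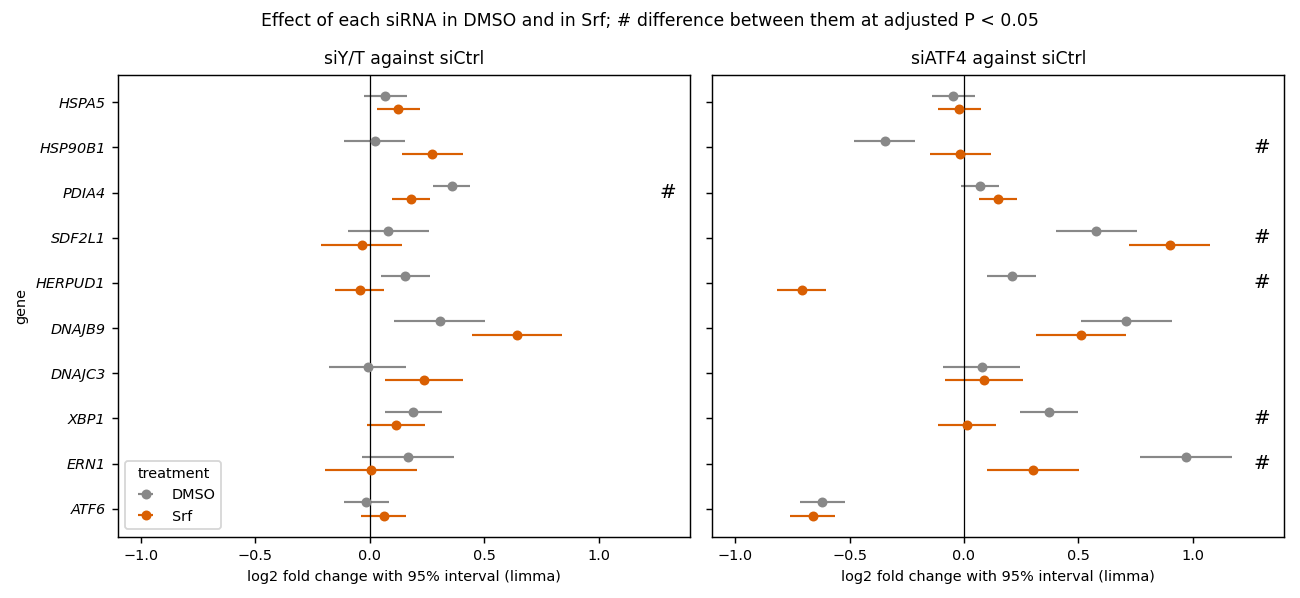
log2 fold change of each gene with siY/T (left) and with siATF4 (right) against siCtrl, in DMSO (grey) and in Srf (orange), with 95% intervals from limma, and a # where the effects in Srf and DMSO differed at an adjusted p under 0.05. *ATF6* falls by nearly the same amount in both treatments with siATF4 (-0.62 and -0.66), whereas *HERPUD1* goes from 0.21 to -0.71.

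Whether the effect of each depletion depended on the drug was tested as the difference between its log2 fold changes in Srf and in DMSO. With siATF4 the difference was called for 5 of 10 members, against 41.1% of all genes (19.3% higher and 21.8% lower). It was -0.92 for *HERPUD1* (standard error 0.070, adjusted p = 1.75e-06), -0.67 for *ERN1* (adjusted p = 0.00143), -0.36 for *XBP1* (adjusted p = 0.00396), 0.33 for *HSP90B1* (adjusted p = 0.00879) and 0.32 for *SDF2L1* (adjusted p = 0.0412). *HERPUD1* was the member that rose with siATF4 in DMSO and fell with it in Srf. The difference for *SDF2L1* did not pass with no filter on low values (adjusted p = 0.082), and with 1 library left out it passed only without siCtrl DMSO replicate 2 or siATF4 DMSO replicate 1. For *ATF6* it was -0.04 (adjusted p = 0.647, 95% interval -0.18 to 0.10). *ATF4* itself differed by -1.14 (adjusted p = 2.84e-07) and *DDIT3* by -1.71 (adjusted p = 3.71e-08). *DDIT3* was higher with siATF4 in both treatments, by 2.04 in DMSO and by 0.32 in Srf.

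With siY/T the difference was called for 1 of 10 members, *PDIA4*, against 22% of all genes (14.2% lower), at -0.18 (standard error 0.054, adjusted p = 0.0342). It was not called with TMM scaling, edgeR or DESeq2, and with 1 library left out it was called only without siY/T DMSO replicate 2 or siY/T Srf replicate 2. *DNAJB9* (0.34, adjusted p = 0.0777), *HSP90B1* (0.25, adjusted p = 0.055) and *HERPUD1* (-0.20, adjusted p = 0.0585) missed the threshold, which does not show that the effects were alike. The difference for *HSP90B1* passed with TMM scaling (adjusted p = 0.0424), quantile normalization (adjusted p = 0.0177), edgeR (adjusted p = 0.0389) and DESeq2 (adjusted p = 0.0164), so the member called depended on the tool. Without siY/T DMSO replicate 2 the differences for *HSP90B1*, *HERPUD1* and *DNAJC3* passed, and that for *DNAJB9* passed with quantile normalization (0.50, adjusted p = 0.0206) and without siCtrl Srf replicate 1 or siY/T Srf replicate 2. *ATF4* differed by -0.33 (adjusted p = 0.00348).

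The remaining lists placed the members among their partners. Over all genes, 36.3% were higher and 26.9% lower with Srf in siCtrl cells, 33.4% and 34.4% with siATF4 in DMSO, and 35.8% and 37.4% with siATF4 in Srf. Of 7 sensors and transducers, 2 rose and 1 fell with Srf in siCtrl cells, and *ATF6B*, the paralogue of *ATF6*, was called with 0.76, as it was with siY/T in DMSO with 0.79. With siATF4 in Srf 2 rose and 4 fell. Of 9 co-chaperones of BiP, 1 rose and 4 fell with Srf in siCtrl cells (median -0.16), and 6 rose and 0 fell with siATF4 in DMSO (median 0.25; 3 did not pass). Of 12 ER oxidoreductases, 1 rose and 2 fell with Srf in siCtrl cells, while with siATF4 *PDIA3*, the partner of calnexin, fell by 0.85 in DMSO and by 0.75 in Srf, and *PDIA5* fell by 0.71 in DMSO, on the log2 scale.

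Of the 8 genes of the calnexin cycle, 2 rose and 6 did not pass with Srf in siCtrl cells, and with siATF4 5 rose and 2 fell in DMSO and 2 rose and 3 fell in Srf. Of 15 tested genes of ER-associated degradation, 5 rose and 5 fell with Srf in siCtrl cells (median -0.07). With siATF4 in Srf 5 rose and 8 fell (median -0.17), and 5 were called, all lower, among them *EDEM1*, *SEL1L* and *EDEM2* (-0.77), where 28.9% of all genes were called and 18.7% were called lower. *SYVN1* was called with siY/T in DMSO at 0.60. Of 6 transcripts known to be cut by IRE1, which would fall where its nuclease is active, 4 rose and 0 fell with Srf in siCtrl cells (median 0.30; 2 did not pass), with *PDGFRB* at 0.85 and *HGSNAT* at 0.65, and *PDGFRB* was at -2.47 with siATF4 in DMSO and -2.08 in Srf. These transcripts have other controls, so their levels do not measure the nuclease.

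Across the 12 libraries the members did not move as a block. The Pearson correlation of log2(CPM + 0.5) was highest for *HSPA5* with *PDIA4* (0.77) and *HSP90B1* with *ATF6* (0.75), and lowest for *ATF6* with *SDF2L1* (-0.91) and with *ERN1* (-0.80). These values describe 6 groups of 2 libraries that share 1 cell line, and they carry no test. Among tested genes whose average reached 5 CPM, those most like *ATF6* were *STRN3* (0.997), *PIK3CB* (0.996) and *NCOA3* (0.991). The most alike was *PITRM1* for *SDF2L1* (0.988), *HCG18* for *ERN1* (0.975), *MRPL49* for *HSPA5* (0.970), *MGAT1* for *XBP1* (0.969), *RNF215* for *HERPUD1* (0.966), *HIVEP3* for *PDIA4* (0.950), *RAP2C* for *DNAJB9* (0.941) and *PRDM2* for *DNAJC3* (0.935). For *HSP90B1* it was its pseudogene copy *HSP90B2P* (0.990).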

How the data were processed

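STAR was used by the authors for alignment to hg19, and unique hits over the exons of RefSeq transcripts were counted in QuasR. The values deposited are CPM, scaled to 1000000 reads on genes, for 26258 Entrez identifiers, and symbols for 26111 came from RefSeq (GRCh38.p14). All 100% of the deposited CPM were whole multiples of 1 read within 0.001 read, so reads were recovered. The labels name 5 µM Sorafenib, 2 libraries per group and a NextSeq instrument, and the study's methods differ in dose, replicate number and instrument. Gene positions are from GENCODE on GRCh37, and the coordinates of the promoter stretches are on GRCh38.p14.

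The 13515 genes that reached 1 CPM in 2 or more libraries, all 10 members among them, were fitted as log2(CPM + 0.5) in limma 3.58.1 (R 4.3.3) with a coefficient for each group and a variance trend, two-sided, with Benjamini-Hochberg adjustment. The 6 groups share 1 estimate of the spread. The study's methods call genes at a P under 0.05 with a log2 fold change of 0.58 and do not say whether that P was adjusted, and here it was. A 95% interval covers the spread between libraries as estimated over all 6 groups. For siY/T DMSO cells, whose 2 libraries differed most, intervals and p-values may therefore be too narrow or too small. The step was tested on simulated reads. Alternatives were pseudocounts, filters, TMM and quantile scaling, a replicate block, fewer groups in the fit, edgeR 4.0.16 and DESeq2 1.42.0 on the recovered reads, other thresholds and leaving out each library. edgeR called between 1498 and 4288 genes per comparison where limma called between 1166 and 3911. Figures were drawn with Python 3.11.15 and matplotlib 3.10.9.

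The members and lists were chosen with earlier results of these data known. Named genes are the members, the siRNA targets, *DDIT3*, *TRIB3*, *ASNS* and *EIF2AK3*, and for each list and comparison up to 3 called genes of largest change whose average reached 5 CPM and whose libraries did not overlap. For each member, genes alike in profile were taken from the 3 with the highest Pearson correlation. Promoter motifs were searched on both strands after the values were seen. The near-identical copy and overlapping genes are given beside *HSP90B1*.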

Additional observations from a re-analysis of the deposited data

Results flagged for a closer look

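For 6 results the effect of a depletion differed between Srf and DMSO cells by limma's test of the difference itself. With siATF4 the difference was -0.92 for *HERPUD1* (adjusted p = 1.75e-06), -0.67 for *ERN1* (adjusted p = 0.00143), -0.36 for *XBP1* (adjusted p = 0.00396), 0.33 for *HSP90B1* (adjusted p = 0.00879) and 0.32 for *SDF2L1* (adjusted p = 0.0412), all on the log2 scale. With siY/T it was -0.18 for *PDIA4* (adjusted p = 0.0342). Single libraries could not be tested as outliers in groups of 2.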

How the results depend on the processing

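No member's change that passed an adjusted p under 0.05 turned its sign under any alternative tried. With the adjusted p alone and no minimum fold, 8 members passed for Srf in siCtrl, 6 for Srf in siY/T, 6 for Srf in siATF4, 4 for siY/T in DMSO, 5 for siY/T in Srf, 7 for siATF4 in DMSO and 6 for siATF4 in Srf, against 0, 1, 0, 0, 1, 3 and 3 called. With a minimum of 1 on the log2 scale, 0 were called for Srf in siY/T, for siY/T in Srf, for siATF4 in DMSO and in Srf, and for the differences for siY/T and siATF4. Quantile normalization called 1 member (*SDF2L1*) for Srf in siCtrl and 3 (*DNAJB9*, *HSP90B1* and *PDIA4*) for the difference with siY/T, and a pseudocount of 1 called 0 for Srf in siY/T. For the difference with siY/T, where 1 was called, only the 4 groups compared gave 0 and an unadjusted P with a fold of 0.58 gave 0, and for that with siATF4, where 5 were called, the latter gave 2. Leaving out 1 library gave 0 to 1 called for Srf in siY/T, 0 to 1 for siY/T in Srf and 0 to 4 for the difference with siY/T (0 without siCtrl DMSO replicate 1 or 2, siY/T DMSO replicate 1, siCtrl Srf replicate 2 or siY/T Srf replicate 1, 4 without siY/T DMSO replicate 2 and 2 without siY/T Srf replicate 2). The causes were not tested. With the replicate number as a block, the difference with siY/T was called for 3 members (*PDIA4*, *DNAJB9* with adjusted p = 0.0487 and *HERPUD1* with adjusted p = 0.0485) and no other member count changed by over 1.5 times. Whether the numbers pair the libraries is not given in the labels. Same-numbered libraries correlated between -0.28 and 0.19 over 15 pairs of groups, above 0.1 in 4, which include the 3 pairs among the Srf groups. Pairs within DMSO lay from 0.04 to 0.19 and those within Srf from 0.10 to 0.16, and pairs between treatments from -0.28 to 0.005. A block within each treatment was not tested, so pairing within a treatment remains possible. Quantile normalization moved the share of higher genes among all called from 70.5% to 52.3% for Srf in siCtrl, 58.5% to 46.9% in siY/T and 65.9% to 54.8% in siATF4, and from 75.3% to 57% for siY/T in DMSO (64.3% by DESeq2) and 35.4% to 48.5% for siATF4 in Srf. The alternatives for the lists and for genes that are no members were added after seeing the data. Precision is limited by the 2 libraries per group.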
